A study of Homo sapiens with 2 samples.

Results

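The mRNAs of 51 translation initiation factors were compared between 1 siControl library and 1 siCYP4F11 library from the human line NCI-H460, which was derived from a large cell carcinoma of the lung. The members are the protein-coding genes of the deposited table whose symbol starts with EIF and a digit. There were 56 such genes, and 5 were left out by the rule, namely the eIF2 kinases EIF2AK1, EIF2AK2, EIF2AK3 and EIF2AK4 and the Y-linked EIF1AY. The 51 members stand among 58735 genes in all and lie on 18 chromosomes. The siControl cells are labelled as wild type and as transfected without an siRNA to CYP4F11, and no control sequence is named. The siCYP4F11 cells are labelled as a CYP4F11 knockdown and received an siRNA to that fatty acid hydroxylase gene. Both were collected at 24 h and carry the same batch label. The sample labels name NCI-H460 throughout, and the design text of the series once names NCI-H469. With 1 library per group there was no replicate check and no p-value, and each difference describes these 2 libraries.

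Initiation factors bring the small ribosomal subunit, the initiator tRNA and an mRNA together. In the textbook pathway eIF2 carries the initiator tRNA as a GTP complex and eIF2B recharges it. eIF3 is the large scaffold on the small subunit, and eIF1, eIF1A and eIF5 set the accuracy of start codon choice. eIF4F, made of the cap-binding protein eIF4E, the scaffold eIF4G and the helicase eIF4A, opens capped mRNAs, and 4E-binding proteins block it when mTOR signalling is low. Phosphorylation of eIF2 during stress turns eIF2B off.

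The libraries held 16207785 counts in siControl and 13002179 in siCYP4F11. CYP4F11 had a level of 197 CPM, the count scaled to library size with TMM factors, in siControl and 74.5 in siCYP4F11, which is 37.8% of the control level, in the direction of the knockdown label. The epithelial keratins KRT8 and KRT18 were abundant, at 1275 and 462 CPM in siControl, whereas EPCAM had 6 counts and CDH1 had 1 there. PTPRC, CD3E, PECAM1 and VWF had 0 counts in both libraries. Of 3 fibroblast genes, COL1A1 and DCN lay between 1.61 and 2.76 CPM in the libraries and COL1A2 had 4 and 0 counts. KRT8 had a log2 ratio (siCYP4F11 over siControl) of -0.30 (95% counting interval -0.33 to -0.26) and DCN, on 26 and 36 counts, of 0.77 (0.01 to 1.56), and the part of these markers in any result was not tested.

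No measured initiation factor mRNA differed by 2-fold between the libraries. Of the 51 members, 49 had a mean CPM of at least 1 and are called measured here. Their levels in siCYP4F11 ran from 66.9% of the control for EIF4A1 to 131% for EIF1B. The 2-fold rule, which also asks for a 95% counting interval of the log2 ratio that excludes 0, was passed by 0 of the 49 members and by 1.96% of the 13942 measured genes. Genes at a mean CPM of 10 or more, where 47 members lie, rarely passed it, with 1 of 9591 higher and 12 lower. A smaller step, called the 25% rule here, asks for a level at least 25% higher or 20% lower (a log2 ratio 0.32 or more from 0) with the same interval condition. By it 3 members were higher and 6 lower. The shares over all measured genes were 6.92% higher and 8.62% lower, so 9 of 49 stands beside 15.5% of all genes. The median log2 ratio of the 49 members was -0.06, with 29 below 0. That of all measured genes was -0.01, with 50.8% below 0. The counting interval lay wholly below 0 for 19 members and wholly above for 9, where 19.2% and 18.6% of measured genes did. The members had a median mean CPM of 110 against 24.6 for measured genes, and intervals are narrower at higher counts. At a mean CPM of 10 or more, 18 of 47 members lay below and 9 above, beside 23.1% and 23.7% of genes. By role, the median log2 ratio was 0.02 for 6 factors of start codon selection, -0.03 for 9 genes of eIF2 and eIF2B, -0.12 for 14 of eIF3, -0.01 for 11 of eIF4F and its helpers and 0.08 for 3 4E-binding genes. It was -0.05 for the 6 genes of eIF5A, eIF6, eIF2A and eIF2D.

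The 3 higher members were EIF1B, EIF4EBP2 and EIF2A. The 6 lower members were EIF4A1, EIF2B4, EIF5AL1, EIF4ENIF1, EIF3C and EIF3CL. In 4 of these 6 (EIF4A1, EIF5AL1, EIF3C and EIF3CL) more than 10% of all 50-base words also occur in other genes, as in 13 of all 51 members, and in EIF2B4 and EIF4ENIF1 fewer do. The intervals cover counting error only. No member had an interval wholly past the 25% step.

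All 9 of these genes had a mean CPM below 100. Of the 27 members with a mean CPM of at least 100, 0 passed the 25% rule, where 7.03% of the 2062 genes at that level did. The SD of log2 ratios over those 27 members was 0.12, and over all 2062 genes it was 0.18. With the GC correction these SDs were 0.13 and 0.16. The 2062 genes include CYP4F11, and their median mean CPM was 173, against 236 for the 27 members. Of the 27 members, 12 had a counting interval wholly below 0 and 6 wholly above. Among all genes at that level the shares were 33.9% and 31.6%.

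**Figure D1:**
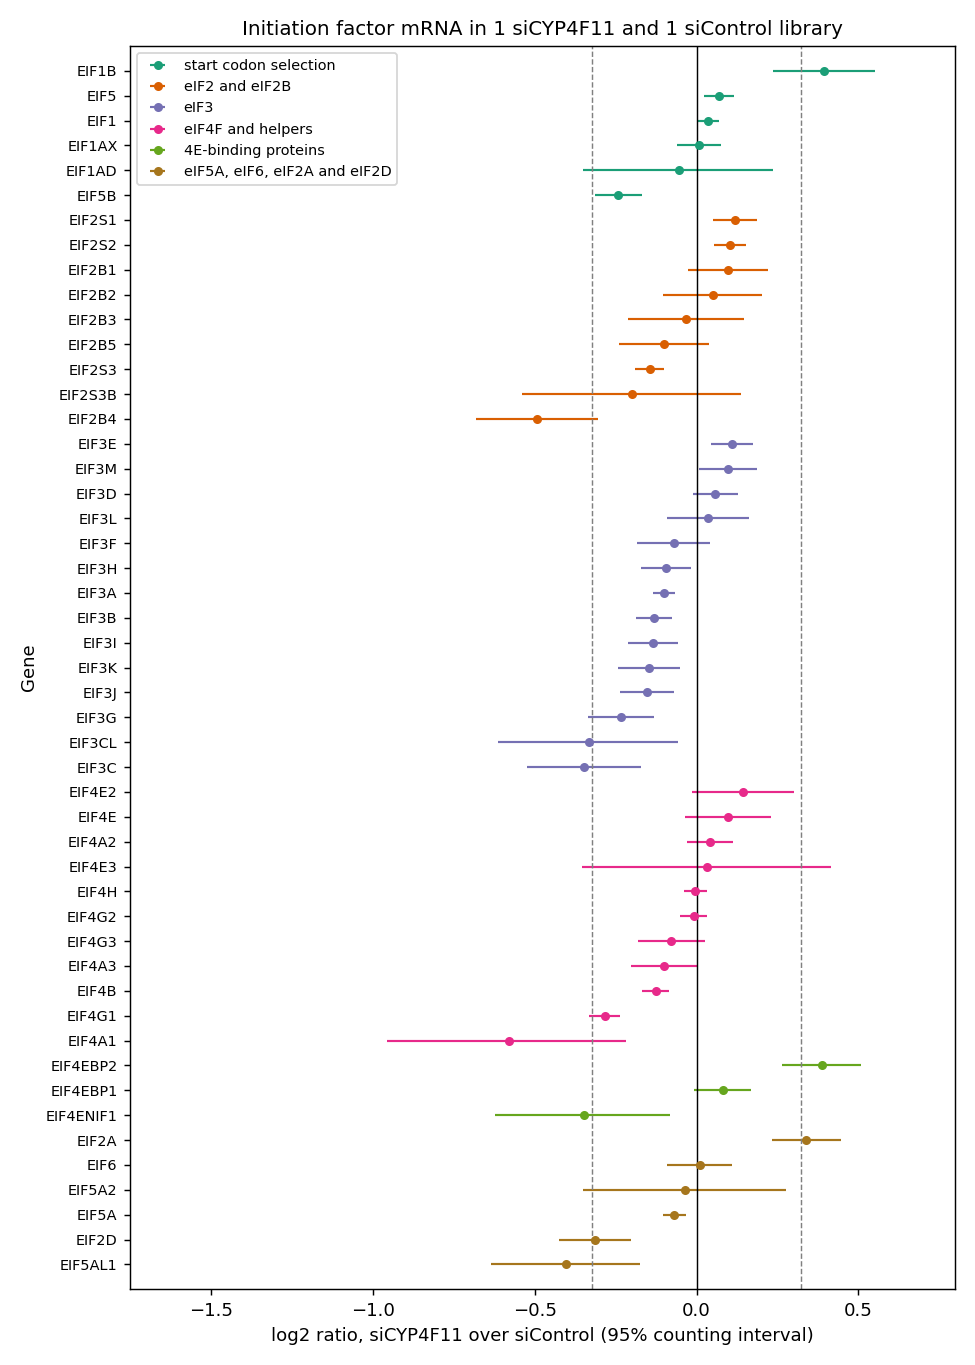
Log2 ratio of siCYP4F11 over siControl (x axis) for the 49 measured initiation factors (y axis), coloured by role, with 95% counting intervals as bars and dashed lines at the 25% step. Most points lie close to 0, EIF1B, EIF4EBP2 and EIF2A lie furthest right, and EIF4A1 lies furthest left at -0.58 with a wide interval.

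**Figure D2:**
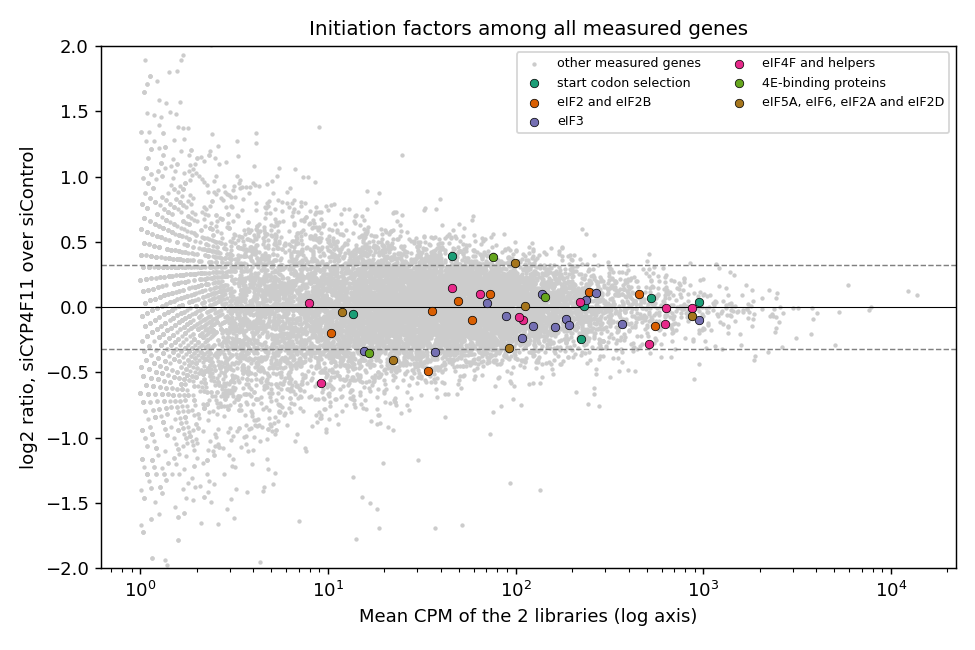
Log2 ratio (y axis) against mean CPM (log x axis) for 13893 other measured genes in grey and the 49 initiation factors in colour, with dashed lines at the 25% step. The initiation factors lie within the cloud of other genes at their own level, and 21 genes fall outside the plotted range of -2 to 2.

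Transcript GC content moved with the ratios. Across 9590 genes at a mean CPM of 10 or more the Spearman correlation of log2 ratio with GC content was -0.42, as a description over genes of the same libraries. Across the 49 members it was -0.36. The 25 members with the lower GC content had a median log2 ratio of 0.03 and the other 24 had -0.11. A lowess correction for GC content left EIF1B (0.33), EIF4EBP2 (0.34), EIF2B4 (-0.41), EIF4A1 (-0.57) and EIF5AL1 (-0.43) past the 25% rule and added EIF5B (-0.36). EIF2A (0.23), EIF3C (-0.28), EIF3CL (-0.26) and EIF4ENIF1 (-0.31) no longer passed it. The values below are uncorrected unless stated, and the part of GC content in them was not tested further.

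**Figure D3:**
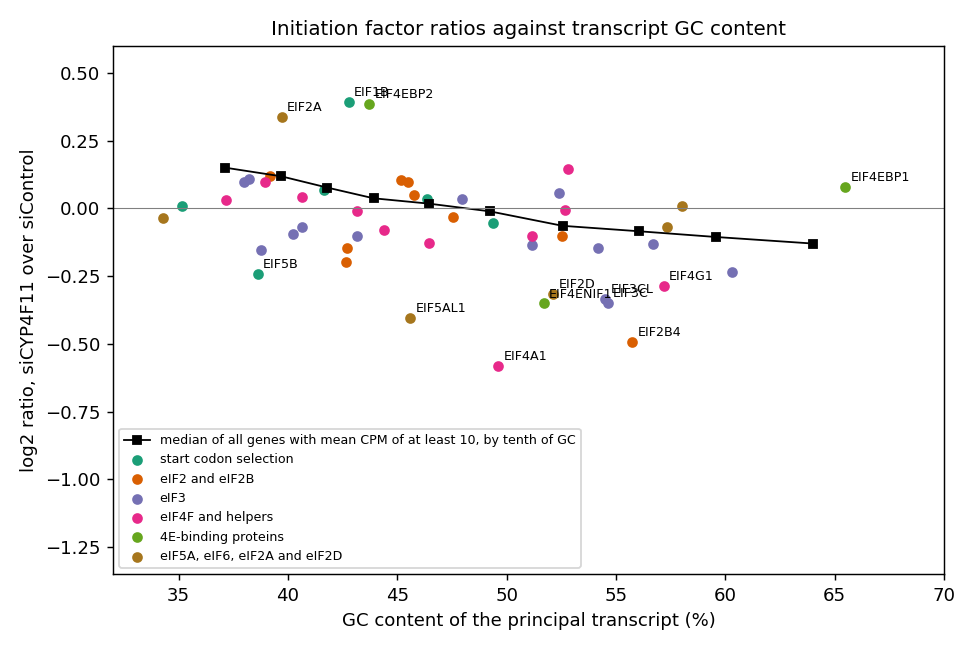
Log2 ratio (y axis) against GC content of the principal transcript in percent (x axis) for the 49 members, coloured by role, with the median of all genes at a mean CPM of 10 or more in each of 10 bins of GC content as black squares. The squares fall from 0.15 in the lowest bin to -0.13 in the highest, EIF5B lies below it at low GC content and EIF4EBP1 above it at high GC content.

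Of the 6 factors of start codon selection, EIF1B alone passed the 25% rule. EIF1, a small guard of start codon accuracy, was at 935 CPM in siControl and 959 in siCYP4F11, and its paralogue EIF1B was at 39.5 and 51.9 CPM. EIF1B (chromosome 3, 40309684 to 40312424, GRCh38) had a log2 ratio of 0.39 (95% counting interval 0.24 to 0.55), against 0.04 (0.00 to 0.07) for EIF1. The log2 balance of EIF1 over EIF1B was thus -0.36 (-0.52 to -0.20), and EIF1 still made up 94.9% of the counts of the pair in siCYP4F11, after 96.0% in siControl.

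EIF5, the GTPase activator of eIF2, was at 514 and 540 CPM with a log2 ratio of 0.07 (0.02 to 0.12). EIF5B, the GTPase that joins the large subunit, was at 241 and 204 CPM with -0.24 (-0.31 to -0.17). The balance of EIF5 over EIF5B was 0.31 (0.23 to 0.40). The GC correction put EIF5 at -0.01 and EIF5B at -0.36, and the balance at 0.36. EIF1AX, the X-linked eIF1A gene, was at 232 and 233 CPM (0.01, -0.06 to 0.08), and at -0.17 after the GC correction. EIF1AD, which holds an eIF1A-like domain, was at 13.9 and 13.4 CPM (-0.06, -0.35 to 0.24).

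Of the 3 subunits of eIF2, EIF2S1 and EIF2S2 had log2 ratios above 0 and EIF2S3 below. EIF2S1, the alpha subunit that stress kinases phosphorylate, was at 237 CPM in siControl and 257 in siCYP4F11 (log2 ratio 0.12, 0.05 to 0.19). EIF2S2, the beta subunit, was at 439 and 472 CPM (0.10, 0.05 to 0.15). EIF2S3, the tRNA-binding gamma subunit, was at 582 and 527 CPM (-0.14, -0.19 to -0.10). The balance of alpha over beta was 0.02 (-0.07 to 0.10). The GC correction moved EIF2S1 to 0.00 and EIF2S3 to -0.21.

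In eIF2B, the delta subunit EIF2B4 was the only one of 5 subunits past the 25% rule. EIF2B4 (chromosome 2, minus strand, 27364352 to 27370486, GRCh38) was at 39.8 CPM in siControl and 28.3 in siCYP4F11, or 642 and 369 counts. Its log2 ratio was -0.49 (-0.68 to -0.31). An antisense gene, AC074117.1, overlaps 3.73% of its exon bases and had 173 and 114 counts, and since the strand setting of the counting is unknown, the reads cannot be told apart there. The ratios of EIF2B1, EIF2B2, EIF2B3 and EIF2B5 were 0.10, 0.05, -0.03 and -0.10, and the intervals of all 4 held 0. EIF2B5, which encodes the catalytic subunit, had 984 and 742 counts.

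In eIF3 most log2 ratios were small and below 0. Of 14 measured genes, 10 had a log2 ratio below 0, and 9 had an interval wholly below 0 against 2 wholly above. Over all genes at a mean CPM of 10 or more, 49.9% had a log2 ratio below 0. The shares with an interval wholly below and wholly above 0 were 23.1% and 23.7%. Of the 14 genes 10 had a mean CPM of 100 or more, with 7 intervals below and 2 above, and over all genes at that level the shares were 33.9% and 31.6%. The median of the 14 was -0.12, and it was -0.10 without EIF3C and EIF3CL, which share reads. With the GC correction 12 of 14 were below 0, with 7 intervals wholly below and 1 above, at a median of -0.11. Of the 9591 genes at a mean CPM of 10 or more, 4863 were then below 0. Their intervals lay wholly below for 2000 and wholly above for 1943.

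EIF3A, the largest scaffold subunit, was at 982 CPM in siControl and 916 in siCYP4F11 (-0.10, -0.14 to -0.07). EIF3B, its partner in the core, was at 387 and 353 CPM (-0.13, -0.19 to -0.08). EIF3G and EIF3I, which bind through EIF3B, were at -0.23 (-0.34 to -0.13) and -0.13 (-0.21 to -0.06). EIF3G, at 117 and 99.3 CPM, had the lowest ratio of the 12 genes other than EIF3C and EIF3CL, and it did not pass the 25% rule. EIF3J, which associates loosely, was at -0.15, EIF3K at -0.15, EIF3H at -0.09 and EIF3F at -0.07. With the GC correction EIF3B was at -0.05 (-0.10 to 0.01) and EIF3K at -0.08 (-0.18 to 0.01), so both intervals held 0. EIF3G was then at -0.12 and EIF3I at -0.10. The correction moved EIF3A (-0.16), EIF3F (-0.17), EIF3H (-0.20) and EIF3J (-0.28) further below 0.

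EIF3E was highest of the 14, at 259 and 280 CPM (0.11, 0.04 to 0.17), followed by EIF3M at 0.10 (0.01 to 0.19). Both have low GC content, and the correction put them at -0.02 and -0.03. EIF3D, a subunit with cap-binding activity of its own, was at 0.06 (-0.01 to 0.13), and EIF3L was at 0.03 (-0.09 to 0.16). A non-coding gene on the same strand covers 41.1% of the exon bases of EIF3L, so its count is less certain.

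Levels of eIF3 genes were compared as TPM, the level per gene length, from the deposited lengths. EIF3A had the highest TPM, at 441 in siControl, and EIF3CL the lowest, at 17.8, with EIF3C next at 19.1. Of their 50-base words, 97.2% in EIF3CL and 45.4% in EIF3C also occur in other genes. How shared reads were counted is not given, so the levels of EIF3C and EIF3CL are less certain. The order of the 14 genes was nearly the same in both libraries, with EIF3E and EIF3K changing places. The deposited length is that of all exons of a gene, which lowers the TPM of genes with long rare exons. With the length of the principal transcript EIF3E ranked first, so the order among subunits depends on the length used.

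**Figure D4:**
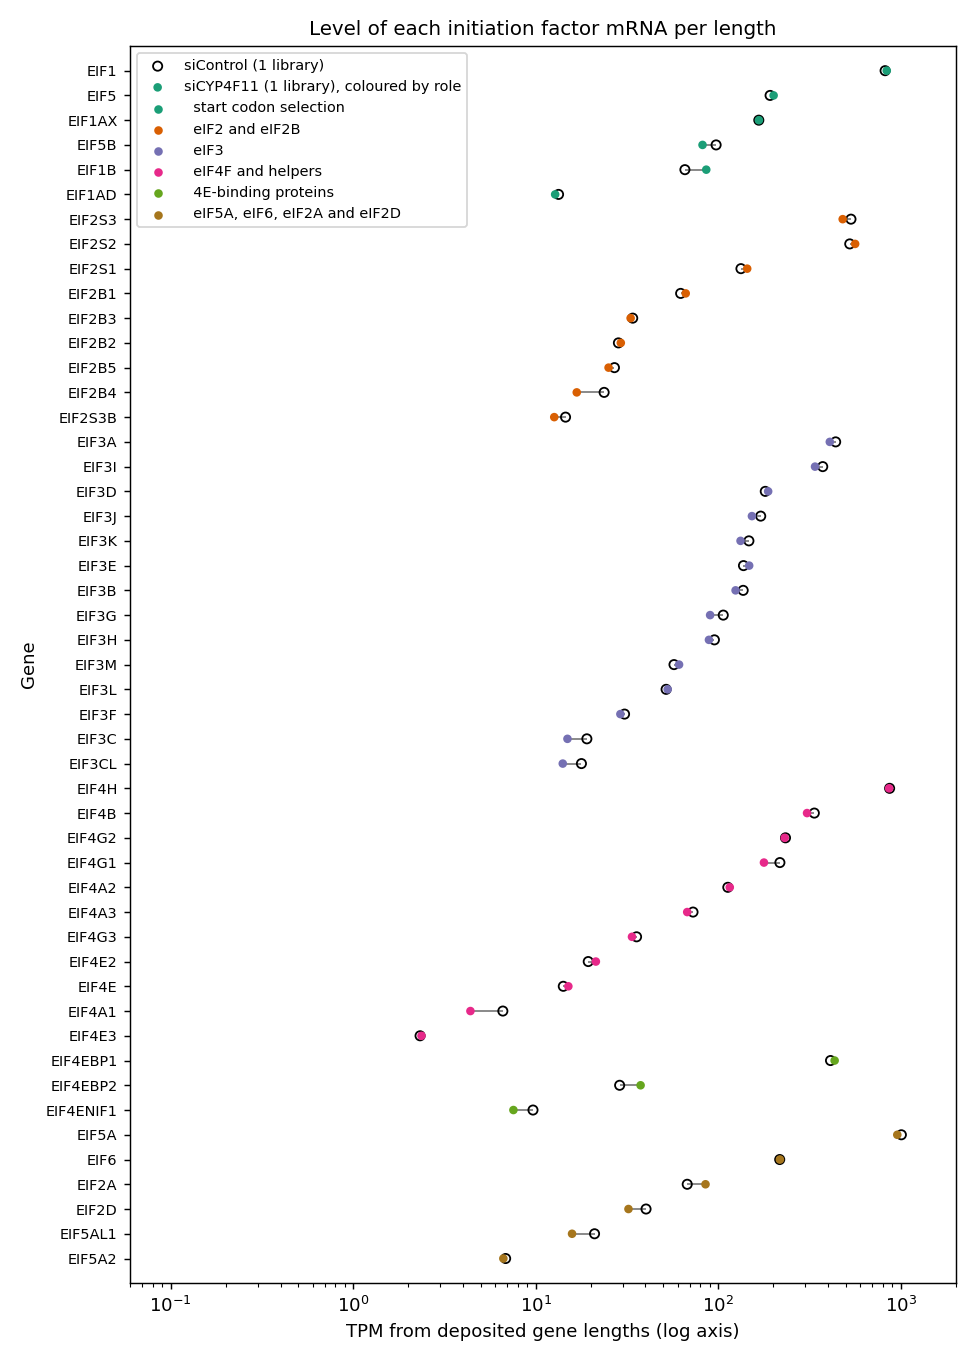
Level of each of the 49 measured members in TPM (log x axis), as open circles for siControl and filled circles coloured by role for siCYP4F11, sorted within each role. The circles of a gene lie close together, while levels span from EIF4E3, at 2.33 TPM in siControl, to EIF5A, at 1010.

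EIF3C, a core subunit, has a near-identical copy, EIF3CL. Both lie on chromosome 16 (GRCh38), at 28688558 to 28735730 on the plus strand and 28379579 to 28403879 on the minus strand. Their coding sequences in GENCODE 29 were identical over all 2739 aligned bases, and 97.2% of the 50-base words of EIF3CL also occur in EIF3C. They had 675 and 279 counts in siControl and 429 and 179 in siCYP4F11. Summed, the log2 ratio was -0.34 (-0.49 to -0.20), which passes the 25% rule for the pair taken as 1 gene. With the GC correction EIF3C was at -0.28 and EIF3CL at -0.26, and neither passed it.

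EIF5A and its intronless copy EIF5AL1 differ at 5 of 462 coding bases, and EIF2S3 and its copy EIF2S3B at 25 of 1416. The 60-base stretches with the most differences in the aligned sequences are shown as examples of bases that tell the genes of a pair apart. Reads from elsewhere can do so too. Of the 50-base words, 15.3% in EIF5A, 15.4% in EIF5AL1, 19.2% in EIF2S3 and 26.8% in EIF2S3B also occur in other genes. Capitals mark the bases that differ, and positions count from the first base of the coding sequence, or of the transcript for the pseudogene EIF4A1P10.
EIF5A, bases 74 to 133: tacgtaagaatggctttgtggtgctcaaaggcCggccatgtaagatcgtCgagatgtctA
EIF5AL1, bases 74 to 133: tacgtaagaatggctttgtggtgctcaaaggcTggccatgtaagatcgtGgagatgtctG
EIF2S3, bases 298 to 357: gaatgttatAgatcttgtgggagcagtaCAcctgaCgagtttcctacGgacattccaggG
EIF2S3B, bases 298 to 357: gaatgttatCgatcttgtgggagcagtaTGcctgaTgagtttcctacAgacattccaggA
EIF4A1, bases 171 to 230: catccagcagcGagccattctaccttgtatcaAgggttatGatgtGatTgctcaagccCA
EIF4A1P10, bases 171 to 230: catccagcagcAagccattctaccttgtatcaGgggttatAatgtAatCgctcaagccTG

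EIF5A, which carries the modified amino acid hypusine and aids elongation as well as initiation, had the highest level of all members, at 1010 TPM in siControl and 959 in siCYP4F11. Its log2 ratio was -0.07 (-0.10 to -0.03), and 0.02 (-0.02 to 0.06) with the GC correction. EIF5AL1 had 409 and 250 counts and was at -0.40 (-0.64 to -0.17), and the pseudogene EIF5AP4, which shares words with both, had 305 and 191 counts and was at -0.37 (-0.64 to -0.10). Summed with EIF5A, EIF5AL1 moved the pair to -0.08 (-0.11 to -0.04). EIF5A2, a paralogue on chromosome 3, had 194 and 153 counts (-0.04, -0.35 to 0.28), and the balance of EIF5A over EIF5A2 was -0.03 (-0.35 to 0.29). With the GC correction EIF5A2 was at -0.23 and the balance was 0.25. EIF2S3B was at -0.20 (-0.54 to 0.14).

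The count of EIF4A1, the main helicase of eIF4F, was low. It had 178 counts in siControl and 96 in siCYP4F11, against 3511 and 2922 for its paralogue EIF4A2. Models of other genes on the same strand, the readthrough gene SENP3-EIF4A1 and the non-coding AC016876.2 among them, cover 48.6% of the exon bases of EIF4A1. SENP3-EIF4A1 had 2 counts and AC016876.2 had 3 in siControl. The processed pseudogene EIF4A1P10 on chromosome X, 97.1% identical over 1216 aligned bases, had 400 and 285 counts, more than EIF4A1 itself. The part of these overlaps in the low count was not tested, and the log2 ratio of -0.58 (-0.96 to -0.22) rests only on the reads assigned to this gene. Summed with EIF4A1P10, the counts were 578 and 381 and the log2 ratio was -0.29 (-0.49 to -0.11), which does not pass the 25% rule. EIF4A2 was at 0.04 (-0.03 to 0.11).

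The scaffold gene EIF4G1 had the lowest ratio of the eIF4F group after EIF4A1. EIF4G1 (chromosome 3, 184314495 to 184335358, GRCh38) was at 565 CPM in siControl and 464 in siCYP4F11. Its log2 ratio was -0.28 (-0.33 to -0.24), or 82.1% of the control, which does not pass the 25% rule. EIF4G3, its paralogue, was at 108 and 102 CPM (-0.08, -0.18 to 0.03), and EIF4G2, a scaffold that lacks the eIF4E-binding part, was at 636 and 632 CPM (-0.01, -0.05 to 0.03). The balance of EIF4G1 was -0.21 (-0.32 to -0.09) over EIF4G3 and -0.28 (-0.34 to -0.21) over EIF4G2. These balances were -0.08 and -0.13 with the GC correction, outside those intervals, and EIF4G1 itself was then at -0.20.

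Without the GC correction, the intervals of all 3 measured cap-binding genes held 0. EIF4E was at 62.6 CPM in siControl and 67.0 in siCYP4F11 (0.10, -0.03 to 0.23). EIF4E2, a cap-binding protein linked to translational repression, was at 43.7 and 48.3 CPM (0.14, -0.01 to 0.30), and EIF4E3 at 7.87 and 8.04 CPM (0.03, -0.36 to 0.42). The balance of EIF4E over EIF4E2 was -0.05 (-0.25 to 0.16). With the GC correction EIF4E2 was at 0.20 (0.04 to 0.35), an interval above 0, and the balance was -0.22. The corrected intervals of EIF4E (-0.02) and EIF4E3 (-0.11) still held 0. EIF4E1B had 0 counts in both libraries, which allows up to 0.186 CPM in siControl and 0.230 in siCYP4F11 at 3 counts.

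Of the helicase cofactors, EIF4B was at 649 and 595 CPM (-0.13, -0.17 to -0.08) and EIF4H at 872 and 869 CPM (0.00, -0.04 to 0.03). EIF4A3, the related helicase of the exon junction complex, was at -0.10 (-0.20 to 0.00). EIF4H had the highest level of the eIF4F group, at 871 TPM in siControl and 865 in siCYP4F11.

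The 4E-binding proteins gave both a higher and a lower gene. EIF4EBP2 (chromosome 10, 70404379 to 70428618, GRCh38) was at 65.7 CPM in siControl and 86.0 in siCYP4F11. Its log2 ratio was 0.39 (0.26 to 0.51), and 0.34 with the GC correction. EIF4EBP1 was at 139 and 147 CPM (0.08, -0.01 to 0.17), and at 0.21 with the correction. The balance of EIF4EBP1 over EIF4EBP2 was -0.31 (-0.46 to -0.15), and -0.13 with the correction. In TPM EIF4EBP1 stayed well above EIF4EBP2, at 413 against 28.9 in siControl and 435 against 37.6 in siCYP4F11.

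EIF4ENIF1, the transporter that takes eIF4E to the nucleus, was at 18.5 and 14.5 CPM (-0.35, -0.62 to -0.08), and at -0.31 with the GC correction, short of the 25% rule. Genes on the other strand, SFI1 among them, overlap 6.94% of its exon bases. EIF4EBP3 had 4 counts in siControl and 0 in siCYP4F11 and was not measured. Its model shares 73.4% of its exon bases with the readthrough gene ANKHD1-EIF4EBP3, which had 12 and 10 counts. The 95% counting interval in siControl was 0.07 to 0.63 CPM, and that of the 0 counts in siCYP4F11 reached 0.2826 CPM, so a difference was not detectable at this depth.

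**Figure D5:**
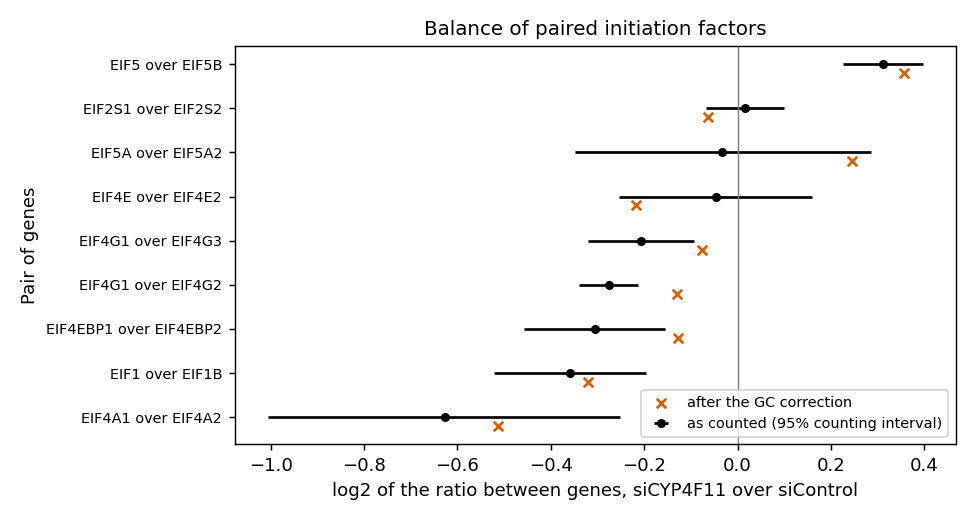
Log2 change in the balance of 9 pairs of initiation factor genes, siCYP4F11 over siControl (x axis), with 95% counting intervals, and crosses for the values after the GC correction. EIF5 over EIF5B lies to the right of 0 at 0.31, and EIF1 over EIF1B, EIF4EBP1 over EIF4EBP2 and EIF4A1 over EIF4A2 (-0.63) lie to the left.

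Of the factors that can deliver tRNA outside the eIF2 route, EIF2A was higher, a call that the GC correction ended (0.23). EIF2A (chromosome 3, 150546678 to 150584242, GRCh38) was at 87.8 CPM in siControl and 111 in siCYP4F11, a log2 ratio of 0.34 (0.23 to 0.45). It is a separate gene from the eIF2 alpha subunit. EIF2D, which also takes part in ribosome recycling, was at 102 and 82.0 CPM (-0.31, -0.43 to -0.20), just short of the 25% rule. EIF6, which keeps the large subunit from joining early, was at 111 and 112 CPM (0.01, -0.09 to 0.11).

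Promoter sequence was compared for the 43 members with an entry in the RefSeq promoter table (GRCh38.p14), as windows of 250 bases before to 50 after the start. The E-box CACGTG, searched on both strands, was in 11 of 43 (25.6%) and in 10.2% of 9641 measured protein-coding genes. The 10 measured members with it had a median log2 ratio of -0.05 and the measured members without it -0.06. The ETS core CCGGAAGT was in 8 members (18.6%, against 9.15%), the CCAAT box CCAAT in 16 (37.2%, against 36.6%), the core AAGATGGC in 3 (6.98%, against 5.56%) and TATAAA in 2 (4.65%, against 5.40%). The core of the NRF1 site and TGATGCAA were in 0 of the 43 windows and in 2.32% and 0.425% of all. All were searched on both strands.

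The E-box stretches of 4 members are shown because these genes carry the same letters at different log2 ratios, from 0.39 for EIF1B to 0.00 for EIF4H, -0.13 for EIF4B and -0.28 for EIF4G1. They were chosen after their values were seen. Capitals mark the E-box, and all 4 genes lie on the plus strand. The E-box shown starts 54 bases before the RefSeq start of EIF1B, 199 before that of EIF4H, 22 before that of EIF4B and 67 before that of EIF4G1, whose window holds 2. For all 4 genes the RefSeq start lies downstream of the gene start in the deposited table.
EIF1B, chr3:40309641-40309670: gcgcgggacggtCACGTGggaggggccgcg
EIF4H, chr7:74174145-74174174: acgccgccgcacCACGTGggctgcagagcg
EIF4B, chr12:53006422-53006451: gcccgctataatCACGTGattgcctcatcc
EIF4G1, chr3:184314527-184314556: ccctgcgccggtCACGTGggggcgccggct

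Other genes of translation were taken from lists of related factors. Of 18 further initiation factors and regulators, all measured, 2 were higher by the 25% rule and 2 lower, beside 6.92% and 8.62% of all measured genes, with a median of 0.01. PDCD4, an inhibitor of eIF4A, was at 111 CPM in siControl and 143 in siCYP4F11 (0.36, 0.27 to 0.46), and PAIP2, which sequesters poly(A)-binding protein, was at 53.0 and 70.9 CPM (0.42, 0.28 to 0.56). PAIP2B had 89 and 38 counts (-0.91, -1.51 to -0.36), and the mTOR partner RPTOR was at 57.2 and 44.7 CPM (-0.36, -0.51 to -0.21). PDCD4, PAIP2 and RPTOR were at 0.24, 0.30 and -0.25 with the GC correction, short of the 25% rule.

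All 8 measured elongation factors of 9 listed had log2 ratios below 0, with a median of -0.19, and 2 were lower by the 25% rule. Of all measured genes 50.8% were below 0 and 8.62% lower by that rule. EEF1A2 was at 304 and 182 CPM (-0.74, -0.81 to -0.67), whereas EEF1A1 was at 7739 and 7606 CPM (-0.03, -0.04 to -0.01). EEFSEC, the selenocysteine factor, was at 19.8 and 14.6 CPM (-0.44, -0.70 to -0.18). EEF1G had 0 counts in both libraries, and the model of AP002990.1 covers 99.9% of its exon bases on the same strand. The median of the elongation factors was -0.11 with the GC correction, and all 8 stayed below 0.

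No gene of the termination and recycling list (6 measured, median 0.02) or of the eIF2 kinases and phosphatase subunits (9 measured, median 0.12) passed the 25% rule. HBS1L had the largest ratio of the first, at 0.30 (0.14 to 0.47), followed by N6AMT1 at -0.19 (-0.46 to 0.07). PPP1CC, a catalytic subunit of the phosphatase that acts on eIF2 alpha, was at 0.23 (0.17 to 0.29) and PPP1CB at 0.14 (0.06 to 0.22). With the GC correction PPP1CC was at 0.13, PPP1CB at -0.03 and the median of the 9 genes at 0.05. Of these 9 genes 8 were above 0, and 6 were with the GC correction, where 6859 of all 13942 measured genes were above 0 without it.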

How the data were processed

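The authors deposited 1 table of whole-number read counts per gene for 2 libraries, not normalised, with gene lengths. Tools listed in the submitters' processing notes, without their roles, are featureCounts 2.0.6, HISAT2 2.2.1, fastp and edgeR 4.0.16, with the build GRCh38. How overlapping genes and strand were counted is not given in the sources used here. Libraries were poly-A selected and strand-specific, per the labels' protocols. All 58735 gene identifiers, coordinates and symbols matched GENCODE 29, and 0 further sample columns were present.

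TMM factors (edgeR 4.0.16, R 4.3.3) were 0.996 and 1.00. Log2 ratios used counts plus 0.5, and 95% intervals the exact Clopper-Pearson share of each pair of counts. They cover counting error only. Balances of gene pairs are conditional odds ratios with exact intervals (scipy 1.17.1). Measured genes had a mean CPM of at least 1. The GC correction was a lowess fit (statsmodels 0.14.6, span 0.3). Coding sequences were aligned with Biopython 1.88. Overlaps and shared 50-base words came from GENCODE 29.

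Members past the 25% rule, the highest and lowest of each role, paired genes and members at 3 counts or fewer were named, and of other lists up to 4 genes past the rule, or else the 2 largest. Alternatives were other scalings, added counts, filters, the GC correction and summed copies. Members and lists were chosen with earlier results of these data known. The 25% rule was also run on counts simulated with counting error only. That run cannot show how the rule behaves under variation between libraries.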

Additional observations from a re-analysis of the deposited data

How the results depend on the processing

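No paired analysis was possible because each group has 1 library. The counts of members past the 25% rule, 3 higher and 6 lower, became 0 and 0 when the interval had to lie wholly past that step, which is a stricter rule. Without members that share words, a set of 37 that was added after seeing the data, 3 were higher and 2 lower. All 3 higher members stayed, and the lower members EIF4A1, EIF5AL1, EIF3C and EIF3CL were among those removed. With the GC correction 2 members were higher and 4 lower, and 3 of these 4 were among the first 6. With near-identical copies summed 3 were higher and 4 lower, EIF4A1 among them, since its pseudogene was not summed there. With EIF4A1P10 added EIF4A1 was at -0.29 and short of the rule. With the GC correction 3 balances left their counting intervals, namely EIF4G1 over EIF4G3 (-0.0763), EIF4G1 over EIF4G2 (-0.13) and EIF4EBP1 over EIF4EBP2 (-0.13), and the cause was not tested beyond the correction itself. Of 49 members, 19 moved beyond their interval with the GC correction, and 0 with another scaling or 2 added to each count. Other library scalings left EIF3CL as the only change, lost with total counts. The member median stayed below 0 in every alternative run, from -0.07 with the GC correction to -0.03 without members that share words. The median of the 3 measured 4E-binding genes was 0.08, 0.21 with the GC correction and -0.13 with no filter on low counts, and that of the eIF5A group was -0.10 with the GC correction. The start codon (-0.03 with the GC correction), eIF2 (0.01 with copies summed) and eIF4F (0.00 with total counts) medians changed sign.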

Other observations

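Pseudogenes named after initiation factors also held reads. Of 72 such genes, 28 had at least 1 count and 11 were measured, and together they had 2444 counts in siControl and 1812 in siCYP4F11. The median log2 ratio of the 11 was -0.15, and 6 of them were below 0. EIF2S2P4 had 483 and 352 counts, and EIF1AXP1 had 284 and 195. Whether these reads came from the pseudogenes or from their parent genes was not tested.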
